A study of Mus musculus with 47 samples.

Results

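The genes described here are 40 genes of the interferon response, taken by symbol from a table of 22474 genes measured in mouse kidney. The list holds genes that type I and type II interferons induce together with regulators of the response. Members were matched by symbol alone. Each symbol matched 1 gene, and all 40 were among the 18786 genes that passed the filter on low counts. The filter is not a test of any difference between groups.

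Polyadenylated RNA of kidney (called metanephros in the tissue label) was sequenced from wild-type mice, female and male, of the inbred strains NZO/HlLtJ and CAST/EiJ and of C57BL/6J, also inbred, on a diet with 44% or with 10% fat, each with fiber. NZO/HlLtJ is a strain prone to obesity, CAST/EiJ is a wild-derived strain, and C57BL/6J is the strain of the mouse reference genome. The diets began at 6 weeks of age and tissue was taken at 15 weeks. There were 47 libraries in 12 groups, of which 11 held 4 libraries and 1, the CAST/EiJ males on 10% fat, held 3. Since the labels do not tie libraries to animals, a p-value here reflects the spread among the libraries, which may be technical. The libraries held 34.4 M to 58.4 M counts (M stands for mega, median 44.8 M). The summed level of 9 markers of kidney tubule and glomerulus lay between 12241 and 19467 CPM (counts scaled to the size of the library) in every library.

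Type I interferons are secreted when cells detect foreign or misplaced nucleic acid. Type I interferon signals through the kinases Jak1 and Tyk2 to a complex that includes Stat2 and Irf9 and binds the interferon-stimulated response element (ISRE). Genes that respond to type II interferon often carry the gamma-activated site (GAS), and many genes respond to both types. The products detect viral RNA, block its translation, degrade it, or attack the vacuoles of intracellular pathogens, and in unstressed tissue most are kept at a low basal level.

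Promoter windows of 300 bases, from 250 before to 50 after the start, were found in RefSeq (GRCm38.p6) for 31 of the 40 genes. The ISRE core, searched as GAAANNGAA on both strands (TTCNNTTTC on the other), stood in the windows of 20 of these 31 genes, which is 64.5%, against 9.76% of 27025 genes with such windows. The GAS letters TTCNNNGAA, which read alike on both strands, stood in 9 of 31, or 29.0%, against 9.55% of all genes. The 2 motifs were counted separately, and overlapping copies were allowed. Only genes with an ISRE core wholly upstream of the start were considered for display. Irf7, Xaf1, Dtx3l, Cmpk2 and Oasl2, which also differed by strain or sex, had no core in their windows, and that of Ifi44 lay across the start. The following 60 bases upstream of the start are shown for 10 genes with strain or sex differences, among them a pair with near-identical promoters. Each is the reference sequence, read 5′ to 3′ on the gene's own strand, with every ISRE core in capitals. A match describes the letters and not a bound site.
Isg15, chr4:156200857-156200916, minus strand: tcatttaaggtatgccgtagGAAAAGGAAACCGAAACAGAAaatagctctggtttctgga
Oas3, chr5:120777698-120777757, minus strand: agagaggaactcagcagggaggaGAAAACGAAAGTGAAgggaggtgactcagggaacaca
Oas1a, chr5:120907526-120907585, minus strand: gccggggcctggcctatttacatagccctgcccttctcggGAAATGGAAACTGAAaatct
Ifit1, chr19:34640764-34640823, plus strand: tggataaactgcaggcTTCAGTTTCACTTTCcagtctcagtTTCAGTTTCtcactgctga
Ifit3, chr19:34583365-34583424, plus strand: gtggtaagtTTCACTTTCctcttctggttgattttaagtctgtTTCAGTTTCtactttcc
Bst2, chr8:71537566-71537625, minus strand: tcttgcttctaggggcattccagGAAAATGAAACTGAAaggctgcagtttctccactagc
Irgm1, chr11:48871421-48871480, minus strand: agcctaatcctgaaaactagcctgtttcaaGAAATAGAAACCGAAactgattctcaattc
Igtp, chr11:58199496-58199555, plus strand: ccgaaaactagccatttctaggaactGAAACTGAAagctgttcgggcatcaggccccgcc
Irgm2, chr11:58214887-58214946, plus strand: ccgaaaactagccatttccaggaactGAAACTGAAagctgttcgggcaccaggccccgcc
Gbp3, chr3:142559977-142560036, plus strand: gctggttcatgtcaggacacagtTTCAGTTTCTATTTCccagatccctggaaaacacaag
The windows of Igtp and Irgm2, neighbouring genes on chromosome 11, had the same base at 58 of 60 positions. Isg15, Oas3, Oas1a, Ifit1, Bst2, Irgm1 and Gbp3 each had overlapping cores, repeated every 6 bases.

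Levels differed widely among the 40 genes. Per kilobase of exon and averaged over all libraries, Samd9l, a translation inhibitor of the antiviral response, was highest at 38.7 CPM per kb, followed by Gbp3 at 16.9, Ifi27 at 15.8, Ifit3 at 7.04 and Rsad2 at 6.54. Oas3 was lowest at 0.0546 CPM per kb. Several members lie close together in the genome. Ifit2, Ifit3 and Ifit1 span 99.3 kb of chromosome 19, Gbp7, Gbp3 and Gbp2 span 108 kb of chromosome 3, Oas2, Oas3 and Oas1a span 177 kb of chromosome 5, and Rsad2 and Cmpk2 span 37.1 kb of chromosome 12 (positions in the deposited annotation).

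As a description of all 40 genes together, each gene's log2 CPM was put on a z scale over the 47 libraries and averaged over the genes. The mean z was 0.141 in NZO/HlLtJ, -0.912 in CAST/EiJ and 0.714 in C57BL/6J kidneys. By sex it was 0.385 ± 0.290 in NZO/HlLtJ females and -0.104 ± 0.239 in NZO/HlLtJ males, -0.482 ± 0.270 in CAST/EiJ females and -1.40 ± 0.227 in CAST/EiJ males, and 0.908 ± 0.289 in C57BL/6J females and 0.520 ± 0.270 in C57BL/6J males (SD, n = 8 each, 7 for CAST/EiJ males). CAST/EiJ was thus lowest in both sexes, and females were above males in each strain.

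**Figure D1:**
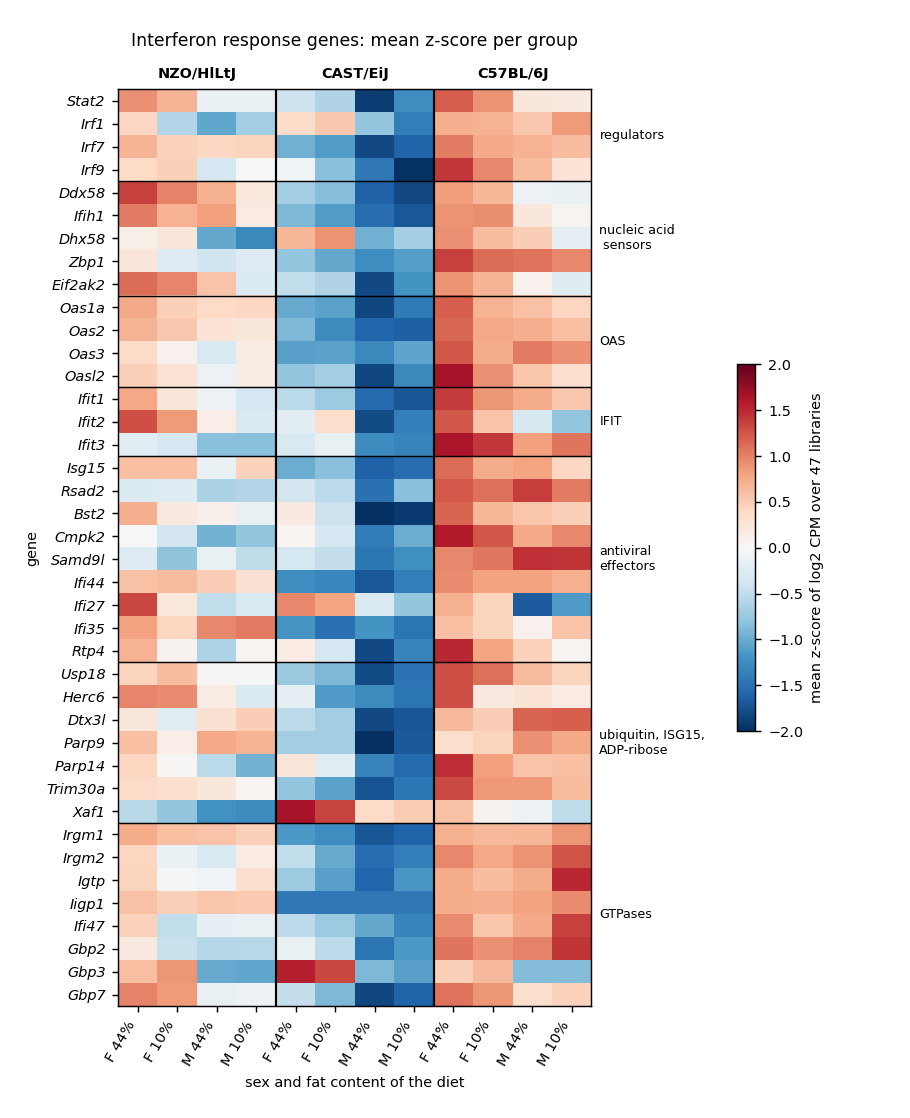
Mean z of log2 CPM of each of the 40 genes (down the page, ordered by role) in each of the 12 groups (across). CAST/EiJ groups are low for most genes, with Gbp3 in females and Xaf1 among the exceptions, and Gbp3 is high in females of every strain.

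Within groups of 4 libraries, 4 libraries were the highest of their group for 25 or more of the 40 genes. NZO/HlLtJ female replicate 2 on 44% fat had a mean z of 0.976 and the highest value of its group for 28 of the 40 genes. C57BL/6J male replicate 3 on 44% fat had 0.876 and was highest for 30 genes, CAST/EiJ female replicate 1 on 44% fat had 0.114 and was highest for 31, and C57BL/6J female replicate 1 on 44% fat had 1.26 and was highest for 25. Immune cell markers were also high in the first of these. Its summed level of 7 markers of B and plasma cells was 157 CPM, against 8.51 to 9.62 CPM in the other 3 libraries of its group, and that of 10 markers of T and NK cells was 13.4 CPM, against 2.86 to 3.39 CPM. In the C57BL/6J male library 9 macrophage markers summed to 142 CPM, against 93.9 to 106 CPM in the other 3, and in the CAST/EiJ female library they summed to 152 CPM, against 134 to 143 CPM. The C57BL/6J female library showed no such excess, with macrophage markers at 109 CPM, against 109 to 117 CPM in the other 3, and B and plasma cell markers at 10.4 CPM, against 9.57 to 60.3 CPM. The part of these cells in the interferon response levels was not tested, and fewer cells of a type and less RNA per cell cannot be told apart in whole kidney. 

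**Figure D2:**
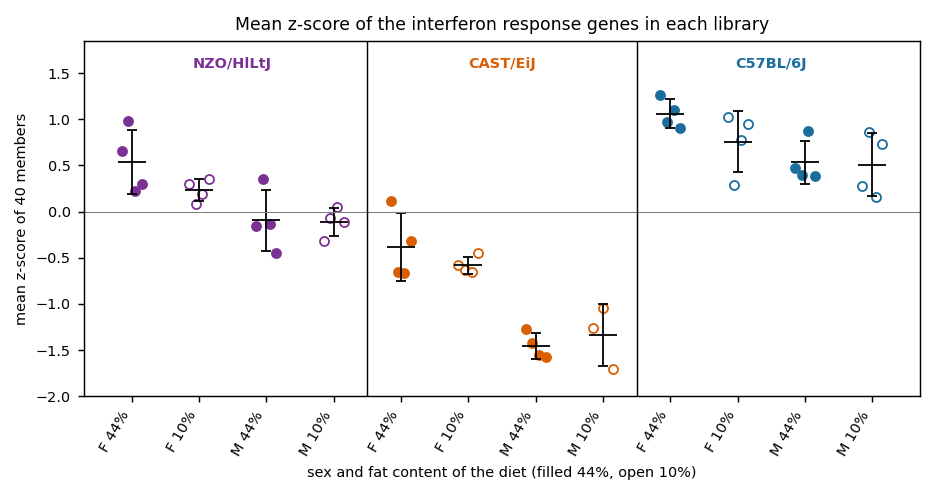
Mean z of log2 CPM over the 40 genes in each library (points), by strain, sex and diet, filled for 44% and open for 10% fat, with the mean and SD of each group (lines). The CAST/EiJ male libraries are lowest, and 1 library on 44% fat stands above the rest of its group in CAST/EiJ females (0.114) and C57BL/6J males (0.876).

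The first comparison asked how the basal level of the response differs between strains, as the mean of both sexes and diets. In CAST/EiJ kidneys 36 of the 40 genes were lower and 3 were higher than in C57BL/6J kidneys at an adjusted p under 0.05 (edgeR's quasi-likelihood test, Benjamini-Hochberg adjustment over all genes tested). This has to be read against the background, since 71.4% of all genes tested were called between these strains, 35.2% lower and 36.2% higher. The median log2 fold change of the 40 genes was -0.98, against 0.01 over all genes tested. In 17 of the 40 every CAST/EiJ library was below every C57BL/6J library, which held for 7.52% of all genes, and in none was every one above, which held for 6.39%. In NZO/HlLtJ kidneys 30 genes were lower and 3 higher than in C57BL/6J kidneys, with a median of -0.39, where 52.2% of all genes were called, 25.8% lower and 26.4% higher. Here 4 genes, Ifit3, Rsad2, Cmpk2 and Samd9l, were lower in every NZO/HlLtJ library than in any from C57BL/6J, against 2.41% of all genes, and none was higher in every library, against 2.01%. NZO/HlLtJ against CAST/EiJ gave 31 genes higher and 2 lower, with a median of 0.62, where 70.0% of all genes were called, 34.8% higher and 35.2% lower. Every NZO/HlLtJ library was above every CAST/EiJ library for 9 genes, against 6.09% of all genes, and below for 1, Xaf1, against 5.74%. The 3 comparisons share libraries pairwise, and the part of read mapping in them was not tested. Without NZO/HlLtJ female replicate 2, CAST/EiJ female replicate 1 or C57BL/6J male replicate 3, each on 44% fat, the counts for the 3 comparisons lay between 32 and 39.

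Immune cell markers were compared between the strains as well. Against C57BL/6J, 71.4% of all genes tested were called in CAST/EiJ and 52.2% in NZO/HlLtJ. All 10 T and NK cell markers were lower in CAST/EiJ than in C57BL/6J kidneys, with a median log2 fold change of -2.98, and all 6 dendritic cell markers were lower, with a median of -1.68. The T and NK markers summed to 2.44 to 13.4 CPM in NZO/HlLtJ, 0.378 to 1.58 CPM in CAST/EiJ and 2.72 to 6.04 CPM in C57BL/6J libraries. The dendritic markers summed to 2.25 to 7.19 CPM in NZO/HlLtJ, 1.53 to 3.30 CPM in CAST/EiJ and 4.94 to 16.1 CPM in C57BL/6J libraries. The sums of the macrophage markers did not follow this order, at 67.2 to 116 CPM in NZO/HlLtJ, 113 to 171 CPM in CAST/EiJ and 93.9 to 142 CPM in C57BL/6J libraries. Most single markers did not go with the sum in CAST/EiJ. Of the 9, 6 were lower there than in C57BL/6J and 1, Csf1r, was higher, with a median of -0.46. In NZO/HlLtJ 8 were lower than in C57BL/6J, with a median of -0.59. In NZO/HlLtJ against C57BL/6J 4 dendritic markers were lower and 1 higher, with a median of -1.33, 3 T and NK markers were lower and 2 higher, and 1 of 7 B and plasma cell markers was lower. In CAST/EiJ 3 of the B and plasma cell markers were lower and 1 was higher than in C57BL/6J. All 6 endothelial markers were lower in NZO/HlLtJ than in C57BL/6J, with a median of -0.18, and in CAST/EiJ 4 were lower and 2 higher. Of 5 adipocyte markers 2 were lower in NZO/HlLtJ and 1 was higher in CAST/EiJ, and of 4 neutrophil markers 1 was higher in CAST/EiJ. Of 5 erythroid markers 1 was higher and 1 lower in NZO/HlLtJ, and 1 was higher in CAST/EiJ. None of these markers was at 0 in all libraries of a strain. The totals called for B and plasma cell, adipocyte, neutrophil and erythroid markers were below the share of all genes in both strains. Those of macrophage markers in CAST/EiJ and of T and NK markers in NZO/HlLtJ were near it. The part of these cells in the strain differences was not tested.

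**Figure D3:**
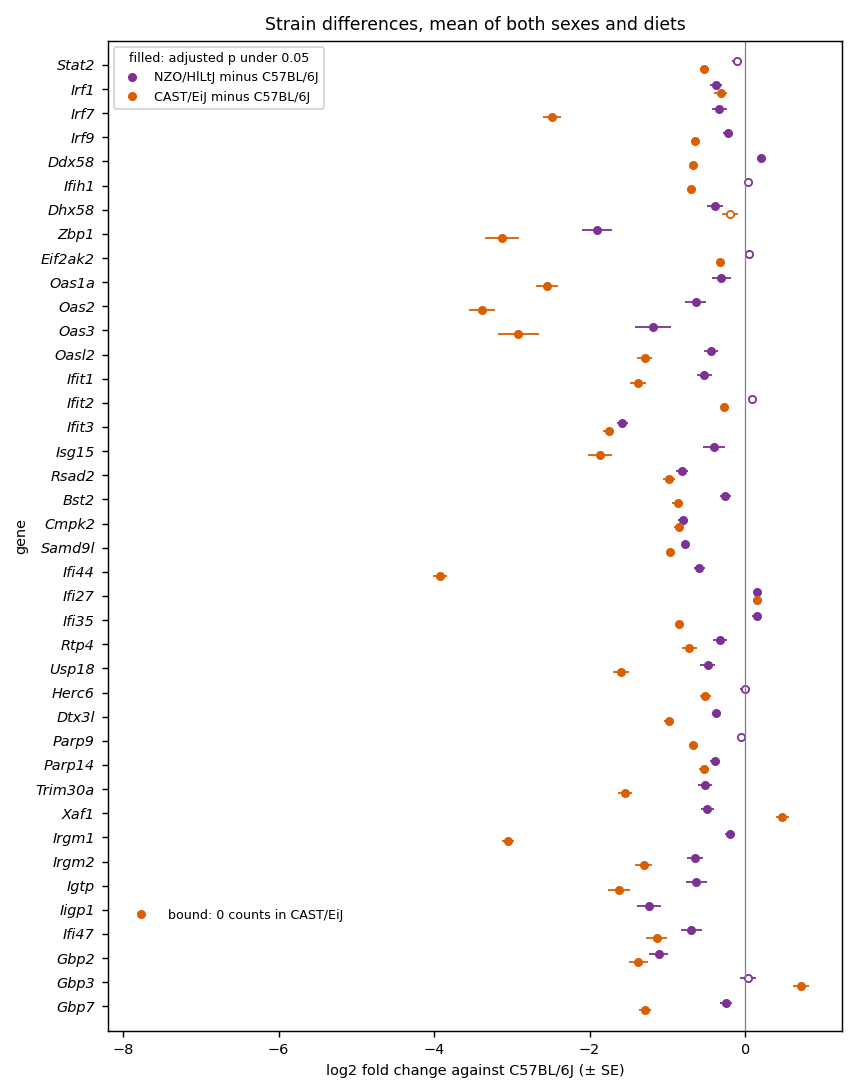
Log2 fold change with its standard error for each of the 40 genes, grouped by role, in NZO/HlLtJ and in CAST/EiJ against C57BL/6J kidneys, filled where the adjusted p is under 0.05. Most points lie left of 0, with CAST/EiJ usually the lower, and Iigp1, at 0 counts in CAST/EiJ, is drawn at its bound.

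Among the regulators, Irf7, the transcription factor that amplifies type I interferon production, had 5.53, 7.67 and 11.4 CPM as lowest, median and highest values in NZO/HlLtJ, 0.956, 1.84 and 3.37 CPM in CAST/EiJ, and 6.47, 10.4 and 12.9 CPM in C57BL/6J libraries. Every CAST/EiJ library was below every library of the other 2 strains, while NZO/HlLtJ and C57BL/6J overlapped. The log2 fold change was -2.48 ± 0.11 (SE) in CAST/EiJ against C57BL/6J (edgeR adjusted p = 7.54e-22). Stat2, Irf9 and Irf1, which transmit or take over the signal, were lower in CAST/EiJ by smaller amounts, with log2 fold changes between -0.64 and -0.32. In NZO/HlLtJ, Irf1, Irf7 and Irf9 were lower than in C57BL/6J, with log2 fold changes between -0.38 and -0.22, and Stat2 did not pass the test.

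The sensors of foreign nucleic acid did not move as 1 block. Zbp1, a sensor of left-handed nucleic acid that can start necroptosis, had a log2 fold change of -3.13 ± 0.22 in CAST/EiJ and of -1.91 ± 0.19 in NZO/HlLtJ, both against C57BL/6J (edgeR adjusted p = 2.56e-16 and 4.07e-11). Its level was low throughout, at 0.244 to 1.47 CPM in NZO/HlLtJ, 0.0226 to 0.534 CPM in CAST/EiJ and 1.13 to 3.35 CPM in C57BL/6J libraries. Ddx58 (RIG-I) and Ifih1 (MDA5), which detect viral RNA in the cytosol, fell by 0.67 and 0.69 on the log2 scale in CAST/EiJ. Ddx58 was 1 of the 3 genes higher in NZO/HlLtJ than in C57BL/6J, with a log2 fold change of 0.20 ± 0.04. Ifih1 and Eif2ak2 (PKR, the kinase that stops translation on double-stranded RNA) did not pass in that comparison. Dhx58 (LGP2), which modulates these sensors, was the only gene of the 40 without a call in CAST/EiJ, at -0.19 ± 0.10 (edgeR adjusted p = 0.0937), and was lower in NZO/HlLtJ at -0.39 ± 0.11.

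The oligoadenylate synthetases, which activate RNase L on double-stranded RNA, were lower in both strains for all 4 members. Oas2 had 1.21, 2.04 and 3.35 CPM as lowest, median and highest values in NZO/HlLtJ, 0.0547, 0.275 and 0.674 CPM in CAST/EiJ, and 1.83, 2.97 and 5.51 CPM in C57BL/6J libraries. The CAST/EiJ libraries lay below all others. In CAST/EiJ the log2 fold changes against C57BL/6J were -3.38 ± 0.17 for Oas2, -2.92 ± 0.27 for Oas3 and -2.55 ± 0.15 for Oas1a, and Oasl2 was at -1.29 ± 0.10. Only 60 counts of Oas3 were summed over the 15 CAST/EiJ libraries. In NZO/HlLtJ the 4 genes were at -0.31 to -1.19, with Oas3 at -1.19 ± 0.23. Oas1a shares 68.8% of its 31-base words with other genes, nearly all of them with Oas1g, so its counts are uncertain.

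The IFIT genes encode proteins that bind viral RNA ends. Ifit3 was lower in every library of NZO/HlLtJ and of CAST/EiJ than in any C57BL/6J library, with lowest, median and highest values of 5.38, 7.07 and 10.9 CPM in NZO/HlLtJ, 4.26, 7.53 and 10.8 CPM in CAST/EiJ, and 13.7, 22.2 and 32.3 CPM in C57BL/6J. The log2 fold change was -1.58 ± 0.07 in NZO/HlLtJ and -1.75 ± 0.07 in CAST/EiJ against C57BL/6J (edgeR adjusted p = 3.96e-22 and 6.94e-24). Between NZO/HlLtJ and CAST/EiJ the ranges of Ifit3 overlapped and the log2 fold change was 0.18 ± 0.07 (edgeR adjusted p = 0.0354), called in 20 of 31 fits that left out 1 library. Its neighbours differed from it. Ifit1 was at -0.52 ± 0.10 in NZO/HlLtJ and -1.37 ± 0.10 in CAST/EiJ, and Ifit2 was at 0.08 ± 0.04, without a call, and -0.27 ± 0.05. Ifit3 shares 61.8% of its 31-base words with Ifit3b, and 10.5% of those of Ifit1 occur elsewhere, so both counts are uncertain.

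Of the 9 antiviral effectors, 8 were lower and 1 higher in CAST/EiJ, and 7 lower and 2 higher in NZO/HlLtJ, than in C57BL/6J. Ifi44, which restricts viral replication, had 8.59, 13.6 and 16.6 CPM as lowest, median and highest values in NZO/HlLtJ, 0.487, 1.28 and 2.18 CPM in CAST/EiJ, and 14.0, 19.3 and 25.7 CPM in C57BL/6J libraries. The CAST/EiJ libraries lay below all others, with a log2 fold change of -3.93 ± 0.09 against C57BL/6J and of 3.33 ± 0.09 for NZO/HlLtJ against CAST/EiJ (edgeR adjusted p = 3.74e-33 and 2.3e-30). Rsad2 (viperin) and Cmpk2, adjacent genes that make antiviral nucleotides, were lower in both strains by similar amounts. They were at -0.81 ± 0.08 and -0.80 ± 0.06 in NZO/HlLtJ and at -0.98 ± 0.08 and -0.86 ± 0.07 in CAST/EiJ, and neither differed between NZO/HlLtJ and CAST/EiJ at the threshold. Samd9l had 141 to 212 CPM in NZO/HlLtJ, 112 to 193 CPM in CAST/EiJ and 232 to 361 CPM in C57BL/6J libraries, with C57BL/6J above both other strains in every library. Ifi27 was higher in both strains by a log2 fold change of 0.15, and Ifi35, whose exons share 12.8% of their 31-base words with an antisense gene, was at 0.15 ± 0.06 in NZO/HlLtJ, called in 24 of 32 fits that left out 1 library, and -0.85 in CAST/EiJ.

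Among the genes of ubiquitin, ISG15 and ADP-ribose transfer, 6 of 7 were lower in CAST/EiJ and 5 of 7 in NZO/HlLtJ than in C57BL/6J. Usp18, the protease that removes ISG15 and damps the receptor, was at -1.60 ± 0.11 in CAST/EiJ, and Trim30a at -1.54 ± 0.09. Xaf1, a pro-apoptotic zinc-finger protein, went the other way in CAST/EiJ. It had 2.2, 3.47 and 4.42 CPM as lowest, median and highest values in NZO/HlLtJ, 4.92, 6.78 and 10.4 CPM in CAST/EiJ, and 2.69, 4.92 and 6.16 CPM in C57BL/6J libraries. CAST/EiJ was above NZO/HlLtJ in every library and overlapped C57BL/6J, with a log2 fold change of 0.48 ± 0.08 against C57BL/6J (edgeR adjusted p = 3e-06). In NZO/HlLtJ it was lower than in C57BL/6J at -0.49 ± 0.09. Herc6 and Parp9 did not pass in NZO/HlLtJ.

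The interferon-inducible GTPases, which attack vacuoles of intracellular bacteria and parasites, held the extremes. Iigp1 (Irga6) had 5.18, 8.0 and 17.2 CPM as lowest, median and highest values in NZO/HlLtJ, 0 counts in all 15 CAST/EiJ libraries, and 10.2, 17.1 and 38.4 CPM in C57BL/6J. Taking 3 counts per library as the limit that a count of 0 allows, it was at least 96.9-fold lower in CAST/EiJ than in NZO/HlLtJ and at least 218-fold lower than in C57BL/6J. This limit covers counting error only. The medians of the 40 genes were unchanged with Iigp1 at its bound. Whether reads of CAST/EiJ alleles were aligned to a genome of that strain is not given in the sources used here. The part of read mapping in this value, and in the other differences between strains, was not tested. In NZO/HlLtJ Iigp1 was at -1.23 ± 0.15 against C57BL/6J.

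Irgm1, which controls the other GTPases, had 34.3, 43.2 and 59.6 CPM as lowest, median and highest values in NZO/HlLtJ, 3.84, 6.18 and 9.96 CPM in CAST/EiJ, and 38.0, 48.7 and 64.4 CPM in C57BL/6J libraries. Again the CAST/EiJ libraries lay below all others and NZO/HlLtJ overlapped C57BL/6J. The log2 fold change was -3.05 ± 0.08 in CAST/EiJ and -0.19 ± 0.07 in NZO/HlLtJ against C57BL/6J (edgeR adjusted p = 7.16e-30 and 0.0152). Igtp and Irgm2, the pair with near-identical promoter windows, were at -1.62 ± 0.14 and -1.31 ± 0.10 in CAST/EiJ and at -0.63 ± 0.13 and -0.65 ± 0.10 in NZO/HlLtJ. Their annotated spans overlap and 15.9% of the 31-base words of Igtp also occur in Irgm2, so reads may be divided between them. The guanylate-binding proteins on chromosome 3 split within 108 kb. Gbp2 and Gbp7 were lower in CAST/EiJ at -1.37 ± 0.12 and -1.29 ± 0.08, while Gbp3 was higher at 0.72 ± 0.10. The excess of Gbp3 was seen in females only, with medians of 177 CPM in CAST/EiJ and 58.1 CPM in C57BL/6J females. In males the medians were 7.33 and 7.97 CPM. In NZO/HlLtJ Gbp2 was at -1.11 ± 0.12, Gbp7 at -0.25 ± 0.08 and Gbp3 at 0.03 ± 0.10, without a call.

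**Figure D4:**
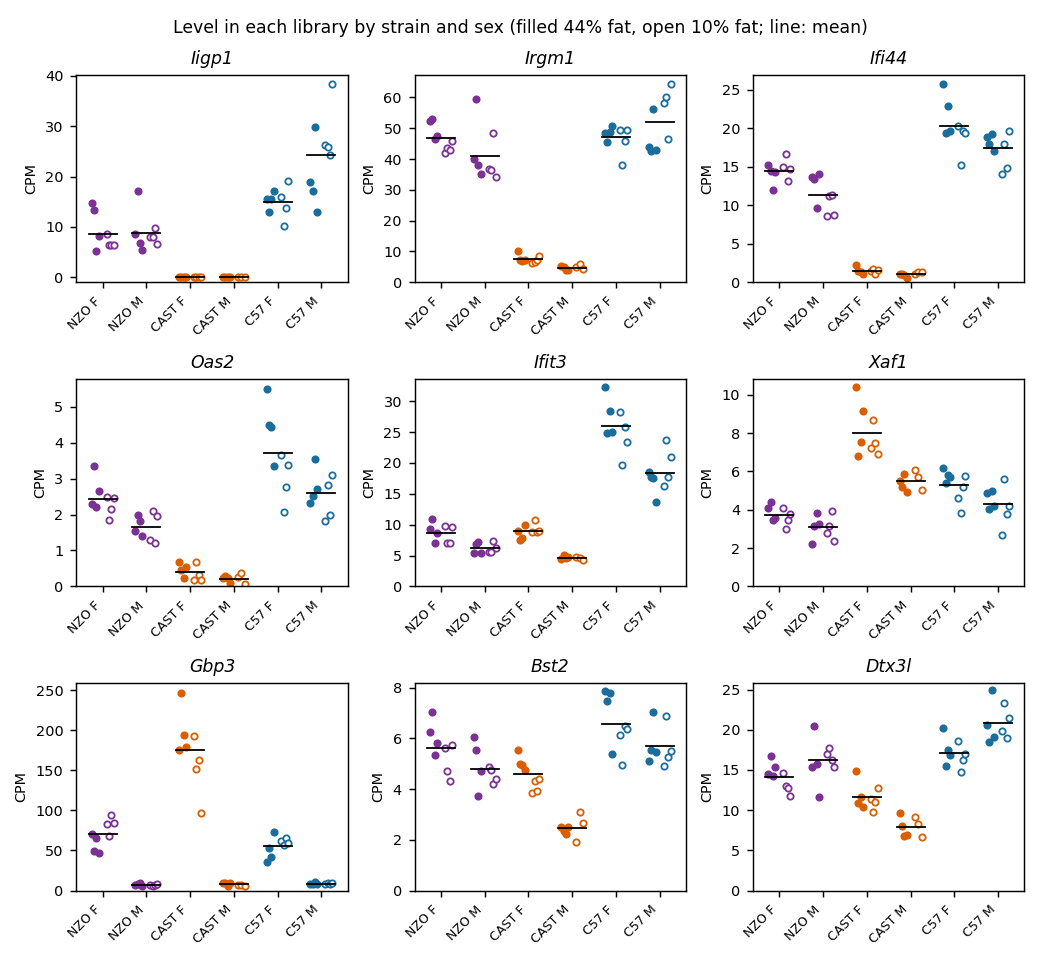
CPM of 9 of the genes in each library (points) by strain and sex, filled for 44% and open for 10% fat, with a line at each mean and an axis range for each gene. Iigp1 is at 0 in CAST/EiJ, Irgm1, Ifi44 and Oas2 are low in CAST/EiJ, Ifit3 is high in C57BL/6J, and Gbp3 is high in females of all 3 strains.

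The second comparison set females against males in each strain, averaged over the diets. In CAST/EiJ 34 of the 40 genes were higher in females and none was lower, with a median log2 fold change of 0.48, against 0.05 over all genes tested (47.6% of all genes were called, 23.7% higher and 23.9% lower). In NZO/HlLtJ 18 were higher and 1 lower, with a median of 0.28 (49.9% of all genes were called, 25.4% higher and 24.5% lower). In C57BL/6J 16 were higher and 4 lower, with a median of 0.24 (47.9% of all genes were called, 25.1% higher and 22.7% lower). The total called by edgeR in NZO/HlLtJ and in C57BL/6J was therefore near the background, and only the split by direction stood away from it. The order of the strains by count depended on the method. By limma-voom 26 genes were called in CAST/EiJ, 22 in NZO/HlLtJ and 29 in C57BL/6J, with medians of 0.41, 0.28 and 0.27. The limma-voom medians over all genes were 0.035, 0.032 and 0.046. The share of all genes called by limma-voom is not given here, so these counts lack their background. Contrasts on 1 diet alone, drawn from the same fit, compared fewer groups. There the edgeR counts fell by more than 1.5 times in NZO/HlLtJ and C57BL/6J and, on 10% fat, in CAST/EiJ. Without NZO/HlLtJ female replicate 2 on 44% fat the NZO/HlLtJ count was 16 higher and 3 lower, without CAST/EiJ female replicate 1 on 44% fat the CAST/EiJ count was 31 higher, and without C57BL/6J male replicate 3 on 44% fat the C57BL/6J count was 20 higher and 3 lower. Females were above males in every library for 2 genes in NZO/HlLtJ (8.04% of all genes), 13 genes in CAST/EiJ (6.6%) and 4 genes in C57BL/6J (10.6%). They were below males in every library for none of the 40, against 9.13%, 10.6% and 12.1% of all genes in NZO/HlLtJ, CAST/EiJ and C57BL/6J.

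Gbp3 had by far the largest sex difference of the 40 genes in each strain. In NZO/HlLtJ its lowest, median and highest values were 46.8, 69.4 and 94.0 CPM in females and 5.76, 6.80 and 9.23 CPM in males. In CAST/EiJ they were 96.7, 177 and 247 CPM in females and 5.63, 7.33 and 9.66 CPM in males, and in C57BL/6J 36.0, 58.1 and 72.7 CPM in females and 7.73, 7.97 and 11 CPM in males. The sexes did not overlap in any strain, and the male ranges of the 3 strains overlapped, while every CAST/EiJ female library was above the females of the other strains. The log2 fold change was 3.28 ± 0.15 in NZO/HlLtJ, 4.54 ± 0.17 in CAST/EiJ and 2.68 ± 0.15 in C57BL/6J (edgeR adjusted p = 1.32e-19, 4.5e-22 and 3.08e-17). Its neighbour Gbp7 was higher in females at 0.71 ± 0.11 in NZO/HlLtJ, 0.74 ± 0.12 in CAST/EiJ and 0.42 ± 0.11 in C57BL/6J, and Gbp2 passed in CAST/EiJ alone, at 0.73 ± 0.18. Gbp3 and Gbp7 share 5.52% of the 31-base words of Gbp3.

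Among the other genes, Ifit3 was higher in females of all strains, at 0.49 ± 0.10 in NZO/HlLtJ, 0.95 ± 0.11 in CAST/EiJ and 0.49 ± 0.09 in C57BL/6J. In CAST/EiJ its lowest, median and highest values were 7.53, 8.95 and 10.8 CPM in females and 4.26, 4.63 and 5.08 CPM in males, without overlap. Bst2 (tetherin), which holds budding virus at the cell surface, had 3.84, 4.58 and 5.55 CPM in CAST/EiJ females and 1.90, 2.51 and 3.09 CPM in CAST/EiJ males, again without overlap, and a log2 fold change of 0.89 ± 0.11. Oas2 at 0.85 ± 0.31, Irf7 at 0.77 ± 0.18 and Rtp4, which inhibits flavivirus replication, at 0.71 ± 0.14 followed in CAST/EiJ. Oas2 was called in 12 of 15 fits that left out 1 library and not without female replicate 1 on 44% fat, female replicate 2 on 10% fat or male replicate 3 on 10% fat, with a lowest value of 0.56, and it was not called by limma-voom, at 0.50, or by limma on the deposited variance-stabilized values, at 0.21. All 4 regulators, 3 of 3 IFIT genes, 8 of 9 effectors and 7 of 7 genes of ubiquitin, ISG15 and ADP-ribose transfer were higher in CAST/EiJ females. Zbp1, Oas3, Ifi35, Igtp and Ifi47 did not pass, and Iigp1, at 0 counts in both sexes, had no value to test. The median over the other 39 genes was 0.49. In NZO/HlLtJ, beside Gbp3, Gbp7 and Ifit3, the genes with the largest differences were Oas2 and Dhx58 at 0.54, Ifit1 at 0.49, Usp18 at 0.38 and Ifi44 at 0.35. In C57BL/6J, beside Gbp3 and Ifit3, the highest were Oasl2 at 0.55 ± 0.13, Usp18 at 0.53 ± 0.14, Oas1a at 0.51 ± 0.17, Ifi27 at 0.50 ± 0.07 and Ifit2 at 0.43 ± 0.06.

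The genes lower in females were few and were chosen here after their values were seen. In C57BL/6J they were Iigp1, at -0.59 ± 0.20, Dtx3l, at -0.28 ± 0.08, Samd9l, at -0.19 ± 0.07, and Parp9, at -0.15 ± 0.06. In fits that left out 1 library, Parp9 was called in 8 of 16. In NZO/HlLtJ Dtx3l was lower, at -0.20 ± 0.08, called in 11 of 16. Dtx3l and Parp9 form a ubiquitin ligase and ADP-ribosyltransferase complex and are divergent neighbours on chromosome 16. They share 7.52% and 8.54% of their 31-base words on opposite strands, and whether counting used strand is not given in the sources used here. Iigp1 in C57BL/6J had 10.2, 15.6 and 19.0 CPM in females and 13, 25 and 38.4 CPM in males, so the sexes overlapped.

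**Figure D5:**
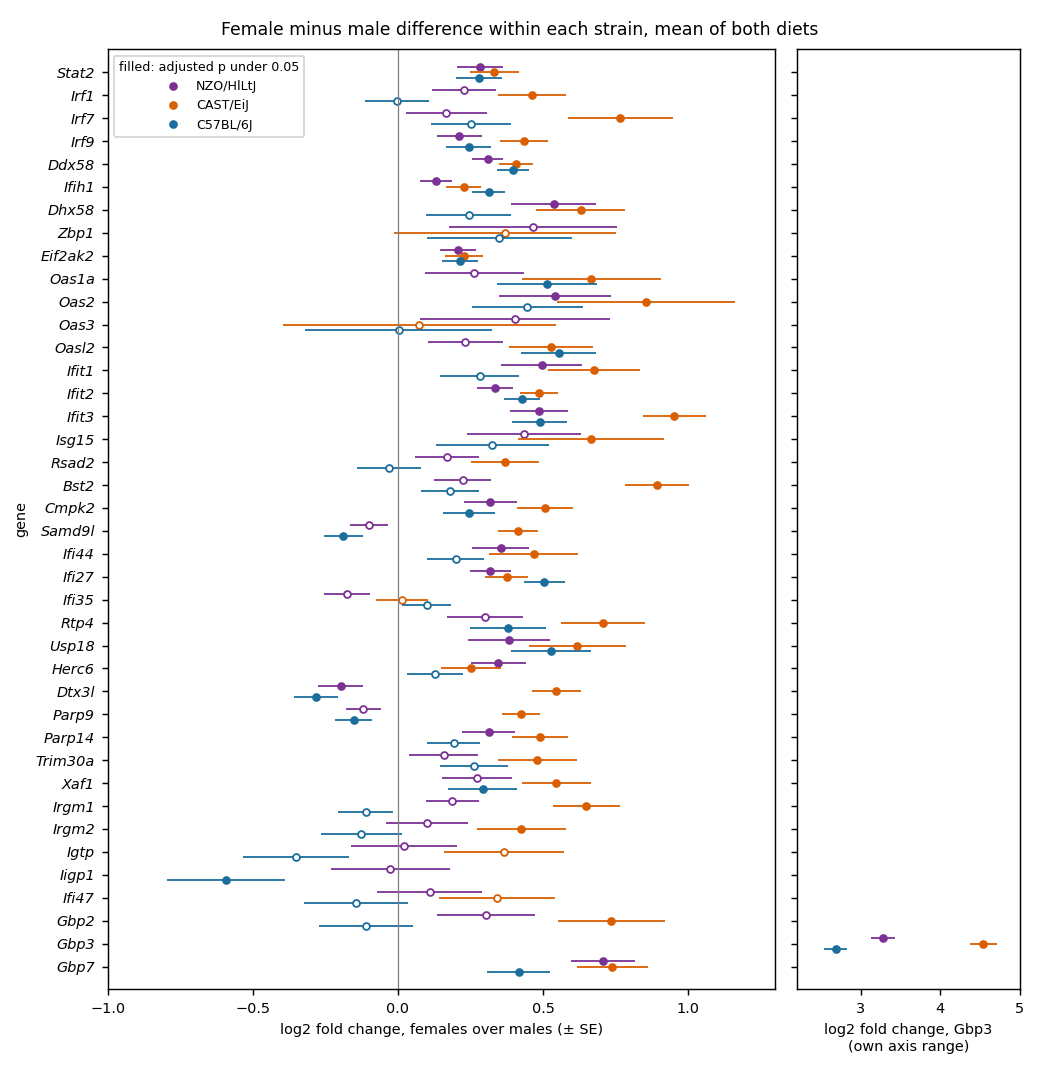
Log2 fold change of females against males with its standard error for each of the 40 genes, in NZO/HlLtJ, CAST/EiJ and C57BL/6J kidneys, filled where the adjusted p is under 0.05. Gbp3, at 2.68 to 4.54, has a panel with its own axis range, and most CAST/EiJ points lie right of 0.

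Markers of other cell types were also compared by sex. Of all genes tested 49.9% were called in NZO/HlLtJ, 47.6% in CAST/EiJ and 47.9% in C57BL/6J. Endothelial markers were higher in females for 3 of 6 genes in NZO/HlLtJ, 5 of 6 in CAST/EiJ and 4 of 6 in C57BL/6J, and of the 9 kidney markers 7 were higher and 1 lower in females of each strain. Of the T and NK markers 2 were higher and 1 lower in NZO/HlLtJ females, and of the macrophage markers 1 was lower in NZO/HlLtJ females and 2 in CAST/EiJ females. In NZO/HlLtJ females 4 of 5 adipocyte markers were higher, with a median of 1.52, 2 of 7 B and plasma cell markers and 1 of 4 neutrophil markers were higher, and of the dendritic markers 1 was higher and 1 lower. In C57BL/6J females 2 of 6 dendritic markers were lower, and in CAST/EiJ females 1 of 5 erythroid markers was higher. For each type of immune cell the total called was below the share of all genes, and for endothelial markers in NZO/HlLtJ it was near it. The part of these cells in the sex differences was not tested.

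The sex difference was then compared between strains by an interaction term. For CAST/EiJ minus C57BL/6J 9 genes were called, all with a greater female excess in CAST/EiJ, where 13.2% of all genes were called, 5.94% in that direction and 7.3% in the other. The median difference was 0.32 over the 39 genes other than Iigp1. By limma-voom it was 0.18 with Iigp1 included, and 8 genes were called. The edgeR difference was 1.86 ± 0.21 for Gbp3, 0.85 ± 0.25 for Gbp2, 0.83 ± 0.11 for Dtx3l, 0.76 ± 0.15 for Irgm1, 0.71 ± 0.15 for Bst2, 0.60 ± 0.10 for Samd9l, 0.58 ± 0.09 for Parp9 and 0.47 ± 0.16 for Irf1, with Ifit3 at 0.46 ± 0.14 (edgeR adjusted p from 2.25e-08 for Gbp3 to 0.0485 for Irf1). Dtx3l, Samd9l and Parp9 were higher in females in CAST/EiJ and lower in females in C57BL/6J. Dtx3l had 9.81, 11.2 and 14.9 CPM in CAST/EiJ females against 6.72, 8.09 and 9.65 CPM in CAST/EiJ males, and 14.7, 16.9 and 20.3 CPM in C57BL/6J females against 18.5, 20.2 and 24.9 CPM in C57BL/6J males. In CAST/EiJ the sexes of Dtx3l did not overlap. Irf1 was called in 8 of 31 fits that left out 1 library. For NZO/HlLtJ minus C57BL/6J edgeR called 0 genes, with 4 at an unadjusted p under 0.05, where 4.95% of all genes were called, 2.6% higher and 2.35% lower, and DESeq2's Wald test called 1, Gbp3, at 0.60.

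The third comparison set the 44% fat diet against the 10% fat diet in each strain, averaged over females and males. In NZO/HlLtJ 2 of the 40 genes were higher on 44% fat and none was lower, with a median of 0.10, where 3.62% of all genes were called, 1.98% higher and 1.64% lower. They were the RNA sensors Ddx58, at a log2 fold change of 0.19 ± 0.05 (edgeR adjusted p = 0.0370), and Ifih1, at 0.19 ± 0.05 (edgeR adjusted p = 0.0418). In females Ddx58 had 44.7, 48.3, 45 and 43.5 CPM on 44% fat and 39.8, 41.7, 41.4 and 39.1 CPM on 10% fat, without overlap, and in males 38.8, 43.7, 34.9 and 32.3 CPM on 44% fat and 31, 30.7, 33.4 and 33.1 CPM on 10% fat, with overlap. Ifih1 had 25, 26.7, 24.6 and 23.2 CPM on 44% fat and 22.7, 22.6, 24.3 and 21.6 CPM on 10% fat in females, and 23.0, 29.0, 24.6 and 18.8 CPM on 44% fat and 17.4, 20.9, 20.9 and 20.3 CPM on 10% fat in males, with overlap in both sexes. Each was called in 7 of 16 fits that left out 1 library of the strain and in none without NZO/HlLtJ female replicate 2 on 44% fat. Neither was called by limma-voom, without the filter, without the term for runs of sample ID numbers or in NZO/HlLtJ libraries alone.

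In CAST/EiJ and C57BL/6J edgeR called 0 of the 40 genes between the diets, with 3 and 6 at an unadjusted p under 0.05, and DESeq2, limma-voom and limma on the deposited variance-stabilized values also called 0. In CAST/EiJ 0.99% of all genes were called between the diets, 0.543% higher and 0.447% lower, and in C57BL/6J 0.0266%, 0.0213% higher and 0.00532% lower. The medians were 0.03 and 0.08. In C57BL/6J the 6 were Oas1a, Oas2, Oasl2, Ifit2, Herc6 and Trim30a, with log2 fold changes of 0.16 to 0.39 on the unadjusted test only. The difference of the diet effects was called for 0 of the 40 genes by edgeR in each case tested. For NZO/HlLtJ minus C57BL/6J 5 genes had an unadjusted p under 0.05, and 0.0373% of all genes were called, 0.016% higher and 0.0213% lower. For NZO/HlLtJ minus CAST/EiJ 4 genes had an unadjusted p under 0.05, and 1.28% of all genes were called, 0.735% higher and 0.548% lower. For females minus males of NZO/HlLtJ 2 genes had an unadjusted p under 0.05, and 0.00532% of all genes were called. DESeq2 and both limma fits also called none in these 3 comparisons.

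The libraries fall into 3 runs of sample ID numbers, 77, 81 and 89, of 16, 16 and 15 libraries, and the labels do not say what the runs are. The direction of the genes called between strains was the same within each run, with Ifit3 in run 81 for NZO/HlLtJ against CAST/EiJ as the exception. For females against males in CAST/EiJ all 34 kept their direction in runs 77 and 89 and 32 did so in run 81. In C57BL/6J 19, 19 and 20 of 20 did. In NZO/HlLtJ only run 77 holds both members of each pair of groups, and there all 19 genes called by sex and both called by diet kept their direction. The diet medians within runs 77, 81 and 89 were 0.21, -0.11 and 0.11 in CAST/EiJ and 0.14, 0.00 and 0.05 in C57BL/6J.

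The genes upstream of the response were described by a second list. Of 38 listed sensors, adaptors, receptors, kinases and interferons 28 could be tested. In NZO/HlLtJ against C57BL/6J 4 were higher and 9 lower, with a median of 0.04, and in CAST/EiJ against C57BL/6J 6 were higher and 13 lower, with a median of -0.12. These shares are near those of all genes, of which 52.2% and 71.4% were called. Jak1, a kinase of the receptor, was at 0.76 ± 0.02 in NZO/HlLtJ, and Tlr7 and Tlr9, endosomal nucleic acid sensors, were at -1.24 and -1.01. In CAST/EiJ Trim25, which activates RIG-I, was at -0.64, Il10rb, a shared receptor chain, at -0.52, and Mavs, the adaptor of RIG-I and MDA5, at 0.42. Between the sexes 8 were higher and 7 lower in NZO/HlLtJ females, 9 and 7 in CAST/EiJ females and 7 and 5 in C57BL/6J females, where 49.9%, 47.6% and 47.9% of all genes were called. Jak2 was higher in females at 0.57, 0.79 and 0.41 in NZO/HlLtJ, CAST/EiJ and C57BL/6J. Between the diets Jak1 was higher on 44% fat in NZO/HlLtJ at 0.18 (edgeR adjusted p = 0.000453).

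A further list of 64 interferon-induced genes, of which 61 were tested, gave 4 higher and 41 lower in NZO/HlLtJ, with a median of -0.47, and 8 higher and 49 lower in CAST/EiJ, with a median of -0.79, against C57BL/6J, where 25.8% and 35.2% of all genes were called lower. Ly6e, which blocks entry of coronaviruses, was at -1.90 in NZO/HlLtJ and -2.87 in CAST/EiJ. Gbp6 and Apol9b were at 0 counts in all CAST/EiJ libraries, and the part of read mapping in this was not tested. Females were higher for 19 and lower for 7 in NZO/HlLtJ, 30 and 5 in CAST/EiJ and 19 and 8 in C57BL/6J. The totals called in NZO/HlLtJ and C57BL/6J were below the share of all genes, 49.9% and 47.9%, and in CAST/EiJ 47.6% of all genes were called. Ifi44l was higher in females at 2.95, 2.49 and 3.22 in NZO/HlLtJ, CAST/EiJ and C57BL/6J. On 44% fat 1 gene, Parp10, was higher in NZO/HlLtJ, at 0.23, where 1.98% of all genes were called higher.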

How the data were processed

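RNA was measured in 47 libraries with spike-in added, per the labels' protocols. The authors deposited expected counts per gene for 22474 genes, 25.9% of them not whole numbers, and a variance-stabilized matrix whose log2 values span 5.93 to 21.1. GRCm38 and DESeq2 are named in the submitters' processing notes. The aligner, counter and strand setting are not given in the sources used here.

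Expected counts were rounded. edgeR 4.0.16 in R 4.3.3 (filterByExpr, TMM, robust quasi-likelihood F test, 33 residual degrees of freedom) fitted 12 group means and an additive term for 3 runs of sample ID numbers over 18786 genes, adjusting p-values by Benjamini-Hochberg over all of them. The SE of an edgeR log2 fold change was derived as its absolute value divided by the square root of the F statistic. CPM were computed from the counts with TMM-scaled library sizes, and z values used log2 CPM (prior count 1). Replicates of a group differed by more than sampling noise, with a chi-square per degree of freedom of at least 11.4. Alternatives used DESeq2 1.42.0, limma 3.58.1 and other settings. Fits were tested on simulated data.

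The 40 genes and the lists were chosen with earlier results of these data known. The rule for named genes took, for each comparison, up to 8 called genes with the largest fold change, up to 3 without a call per role, and up to 4 with the smallest adjusted p from each other list. Others were chosen after their values were seen.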

Additional observations from a re-analysis of the deposited data

Results flagged for a closer look

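Dixon's ratio is the gap of a library to the next divided by the range of the 4. In 330 sets of 4 libraries, 1 gene in 1 group each, 22 held a library whose ratio exceeded the critical value of 0.829. Chance alone would give about 1 in 20 of the sets. In NZO/HlLtJ females on 44% fat, replicate 2 was high for Ifi27 (37.6 CPM), Isg15 (2.6 CPM) and Zbp1 (1.47 CPM). In NZO/HlLtJ females on 10% fat, replicate 2 was low for Ifit2 (19.5 CPM) and Oasl2 (6.86 CPM), and replicate 1 was high for Iigp1 (8.65 CPM). In NZO/HlLtJ males, replicate 3 on 44% fat was low for Ifi44 (9.62 CPM), and replicate 3 on 10% fat was high for Irgm1 (48.5 CPM) and Rtp4 (4.69 CPM). In CAST/EiJ females on 44% fat, replicate 1 was high for Gbp2 (12.5 CPM), Irgm1 (9.96 CPM) and Rsad2 (33.8 CPM), and replicate 4 was low for Cmpk2 (12.9 CPM). In CAST/EiJ females on 10% fat, replicate 2 was high for Ifit3 (10.8 CPM). In CAST/EiJ males on 44% fat, replicate 2 was high for Ifit1 (3.1 CPM), replicate 3 was high for Ifit2 (13.6 CPM), and replicate 4 was low for Isg15 (0.231 CPM). In C57BL/6J females on 44% fat, replicate 4 was low for Bst2 (5.39 CPM). In C57BL/6J males on 44% fat, replicate 3 was high for Gbp3 (11 CPM) and Irgm1 (56.3 CPM). In C57BL/6J males on 10% fat, replicate 4 was high for Iigp1 (38.4 CPM), and replicate 2 was high for Irf7 (12.6 CPM).

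The sex difference was greater in CAST/EiJ than in C57BL/6J by the interaction test for 9 genes. The difference on the log2 scale was 1.86 for Gbp3, 0.85 for Gbp2, 0.83 for Dtx3l, 0.76 for Irgm1, 0.71 for Bst2, 0.60 for Samd9l, 0.58 for Parp9, 0.47 for Irf1 and 0.46 for Ifit3.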

How the results depend on the processing

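Every change in the count of called genes beyond 1.5 times concerned sex or diet. On the 10% fat groups alone, females against males gave 10 genes in NZO/HlLtJ, 16 in CAST/EiJ and 10 in C57BL/6J. On the 44% fat groups alone the counts were 10 in NZO/HlLtJ and 13 in C57BL/6J. These contrasts came from the fit to all 47 libraries and compared fewer groups. DESeq2 called 1 gene for the sex difference of NZO/HlLtJ minus C57BL/6J. Within 1.5 times, limma-voom called 29 genes by sex in C57BL/6J and 26 in CAST/EiJ, the reverse of the edgeR order. No share of all genes called by limma-voom is set beside its counts here. Between the diets in NZO/HlLtJ the count was 0 without the filter, with limma-voom, without the run term and in that strain alone, and the cause was not tested.

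With 1 library left out at a time, the counts were 31 to 33 for NZO/HlLtJ and 39 to 40 for CAST/EiJ against C57BL/6J, and 32 to 36 for NZO/HlLtJ against CAST/EiJ. Females against males gave 17 to 22 in NZO/HlLtJ, 29 to 35 in CAST/EiJ and 17 to 25 in C57BL/6J. The sex interaction gave 7 to 11 for CAST/EiJ minus C57BL/6J and 0 to 1 for NZO/HlLtJ minus C57BL/6J (1 without C57BL/6J female replicate 4 or NZO/HlLtJ male replicate 2, both on 44% fat). Diet gave 0 to 3 in NZO/HlLtJ, 0 to 1 in CAST/EiJ and 0 in C57BL/6J, and the diet interactions 0 to 1 for NZO/HlLtJ minus CAST/EiJ and 0 for the others. The count of 1 came without CAST/EiJ female replicate 2 on 10% fat. Diet in NZO/HlLtJ gave 0 without 10% fat female replicates 1, 2 or 4, 44% fat female replicates 2 or 3, 10% fat male replicate 1 or 44% fat male replicate 2. Over single genes tested under the alternatives, 551 values stayed on the same side of the threshold, 37 lost the call and none changed sign. No paired analysis was possible because the labels give no replicate numbers. Those used here count the libraries of each group in the order of their sample ID numbers. Rare transcripts such as Oas3 and Zbp1 in CAST/EiJ are limited by depth.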
